A study of Homo sapiens with 27 samples.

Results

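The genes described here drive or restrain DNA replication and cell division. They are 43 of the 27115 genes measured by RNA sequencing in 3 diffuse large B-cell lymphoma (DLBCL) lines in which SIRT3, a mitochondrial deacylase, was knocked down. Members were picked out by gene symbol, and all 43 were found. They were split by role into 14 DNA replication genes, 11 genes of G1/S control, 15 genes of G2/M and mitosis and 3 cell cycle brakes. The question asked of them was whether replication genes and mitotic genes responded alike to the knockdown, in which line and with which short hairpin RNA (shRNA).

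The lines were Karpas422, assigned to the OXPHOS subtype, OCI-LY1 (OCI-Ly1 in the labels), a germinal center B-cell like line, and HBL1, an activated B-cell like line. Each was infected with a lentivirus that carried a scramble control shRNA (shCTRL) or 1 of 2 SIRT3 shRNAs (shSIRT3-1 and shSIRT3-2), and RNA was taken at day 8. In all 9 groups the vector was pLKO.1 with a puromycin resistance gene and YFP, so the control cells also carried both, and each group had 3 libraries. A line is a single cell source, and neither the labels nor the methods, which state only that knockdown was replicated within a line, say whether replicates were separate cultures. P-values therefore measure the spread between these libraries, which may be technical. Both hairpins were compared with the same 3 control libraries of a line. In a bulk RNA sample, fewer cycling cells and less RNA per cycling cell cannot be told apart.

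A dividing cell licenses its origins of replication in G1 by loading the MCM helicase with the help of ORC, CDC6 and CDT1. It passes into S phase when cyclin D with CDK4 or CDK6, and then cyclin E with CDK2, phosphorylate the retinoblastoma protein RB1 and free the E2F factors, which activate the replication genes. Mitotic genes such as CDC25C, cyclin B and MKI67 are activated later, mostly through a promoter element called the cell cycle homology region (CHR). CDKN1B (p27) and CDKN2C (p18) inhibit the cyclin-dependent kinases. The germinal center B cells from which DLBCL arises are among the fastest dividing cells in the body.

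The promoters were read first, because the replication and mitotic members differ in how often certain letters occur there. The letters searched were TTTCCCGC, TTTGGCGC and TTTCGCGC for E2F and TTTGAA and TTTAAA for the CHR, on both strands, in the 250 bases before the gene start as given by RefSeq (GRCh38.p14). A promoter entry was matched for 35 of the 43 members. E2F letters occurred in 7 of 12 replication promoters (58.3%), 4 of 8 G1/S promoters (50%), 0 of 12 mitotic promoters and 0 of 3 brake promoters, and in 649 of 27305 promoters of all genes (2.38%). CHR letters occurred in 2 of 12 replication promoters (16.7%), 2 of 8 G1/S promoters (25%), 8 of 12 mitotic promoters (66.7%) and 1 of 3 brake promoters (33.3%), against 6044 of all promoters (22.1%). E2F letters were thus most frequent in the replication and G1/S groups, and CHR letters in the mitotic group. TTTGGCGC and TTTCGCGC can overlap each other on opposite strands, as they do in MCM6. A match is a description of the letters and not a binding site. A missing match does not show that an element is absent, since only these letters, before a single start per gene, were searched.

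Stretches of 70 bases that hold these letters are shown for members named below, with the letters in capitals, on the gene's strand. CDT1 (chr16:88803707-88803776, plus strand), PCNA (chr20:5126659-5126728, minus strand), RRM1 (chr11:4094437-4094506, plus strand) and MKI67 (chr10:128126432-128126501, minus strand) were taken by rule. MCM6 (chr2:135876507-135876576, minus strand) and E2F2 (chr1:23531253-23531322, minus strand) were added after their values were seen, since they carried calls.
CDT1: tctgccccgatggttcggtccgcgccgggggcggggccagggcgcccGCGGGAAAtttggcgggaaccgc
MCM6: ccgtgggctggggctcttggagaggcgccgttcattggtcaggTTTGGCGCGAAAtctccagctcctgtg
PCNA: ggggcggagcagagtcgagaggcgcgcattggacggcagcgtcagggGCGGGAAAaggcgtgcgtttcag
E2F2: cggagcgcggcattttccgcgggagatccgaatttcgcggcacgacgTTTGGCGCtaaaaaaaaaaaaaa
RRM1: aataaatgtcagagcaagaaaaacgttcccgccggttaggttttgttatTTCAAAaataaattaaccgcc
MKI67: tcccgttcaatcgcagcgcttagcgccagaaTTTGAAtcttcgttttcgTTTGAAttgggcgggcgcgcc
CDT1, MCM6, PCNA and E2F2 show E2F letters, and RRM1 and MKI67 show CHR letters. Spellings that differ in the last letter, such as TTTGGCGG in CDT1 and TTTCGCGG in E2F2, were not searched and stay in lower case. In CDC25C, the mitotic member with the largest fall, the 250 bases held neither, and the same was true of AURKB, CCNA2 and BUB1. Bases at or after the gene start were not searched, so these genes may hold the letters there.

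**Figure D1:**
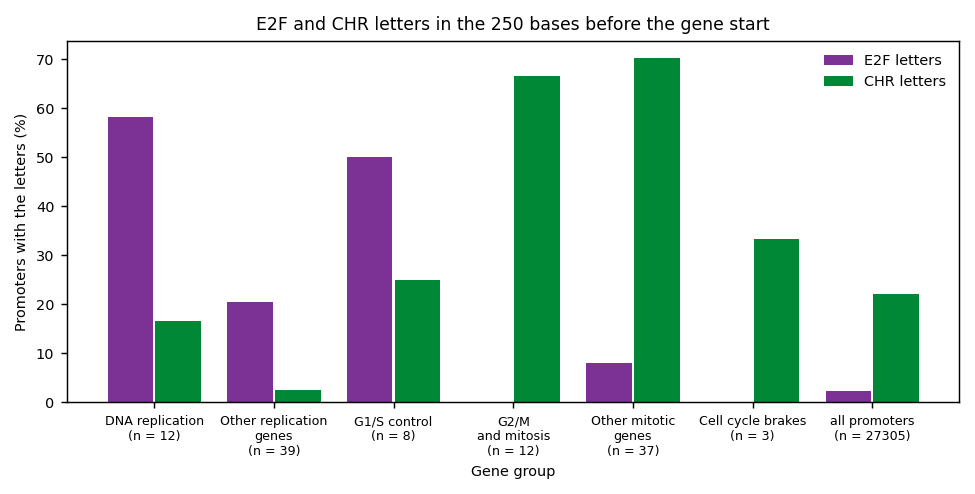
Share of promoters (%, vertical axis, from 0) that hold E2F or CHR letters in the 250 bases before the gene start, for each role group, 2 further lists of replication and mitotic genes and all promoters. E2F letters were found in 58.3% of replication members and 0% of mitotic members, and CHR letters in 16.7% and 66.7%.

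Between 28694398 and 53405456 reads (median 45669254) were counted on genes per library, and members were read as CPM, in which a gene's reads are scaled to the authors' total for the library. CPM are not divided by gene length, so levels are compared only within a gene. SIRT3 stood at 9.14 to 16.4 CPM in the 9 control libraries, 1.06 to 2.79 with shSIRT3-1 and 2.84 to 6.24 with shSIRT3-2. No knockdown library reached its control range. The deeper loss of SIRT3 was with shSIRT3-1 (log2 difference between hairpins 1.08 ± 0.17 SE over the 3 lines). All 8 B-cell markers reached 1 CPM in every group. Of 7 T and NK cell markers at most 3 did (CD3G in Karpas422 above all), of 6 myeloid markers at most 1, and of 6 fibroblast and epithelial markers at most 2. The summed fibroblast and epithelial markers moved with the groups, at 401 to 423 CPM in Karpas422 controls, 144 to 292 with shSIRT3-1 and 104 to 280.0 with shSIRT3-2, nearly all of it the proteoglycan gene DCN, which was at most 0.737 CPM in the other lines. In HBL1 the same sum was 18.2 to 23.6, 6.26 to 9.54 and 41.1 to 66.4 CPM, mostly the collagen gene COL1A2. The summed B-cell markers were lower with shSIRT3-2, at 1069 to 1637 CPM in Karpas422 against 1813 to 2547 in its controls and at 1582 to 1669 in HBL1 against 1963 to 2385, with 5 of the 8 markers called lower in each of these lines. The part of these markers in the member results was not tested.

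Replicate 3 of HBL1 stood apart for these genes. It had the lowest value of the 3 libraries for 40 of the 42 tested members in HBL1 controls, for 40 with shSIRT3-1 and for 26 with shSIRT3-2. The mean log2(CPM + 0.1) of the 14 replication genes was 6.37, 6.17 and 5.58 in the control libraries of HBL1, 5.35, 5.59 and 3.95 with shSIRT3-1 and 6.41, 6.41 and 6.27 with shSIRT3-2. The mean of the 15 mitotic genes was 6.26, 6.29 and 5.17, then 5.22, 5.37 and 3.32, then 6.04, 6.05 and 6.07. Replicate 3 was thus low in controls as well as with shSIRT3-1, and the fall from control to shSIRT3-1 was present within each replicate number. The share of the authors' total that fell on genes was 42.6%, 43.1% and 40.3% in HBL1 with shSIRT3-1, 45.1%, 45.1% and 43.9% in its controls and 44.9%, 44.4% and 44.5% with shSIRT3-2. It was thus lower with shSIRT3-1 in each replicate number. Scaling each library to an equal total over genes moved the median log2 fold change of members there from -1.01 to -0.92. The same median over all genes moved from -0.11 to -0.02. The part of this share in the results was not tested further. In OCI-LY1, control replicate 1 was highest for 33 members and replicate 3 lowest for 34. Same-numbered libraries deviated together in HBL1 and OCI-LY1, so there the fit with replicate number as a block is given wherever it changed a call.

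**Figure D2:**
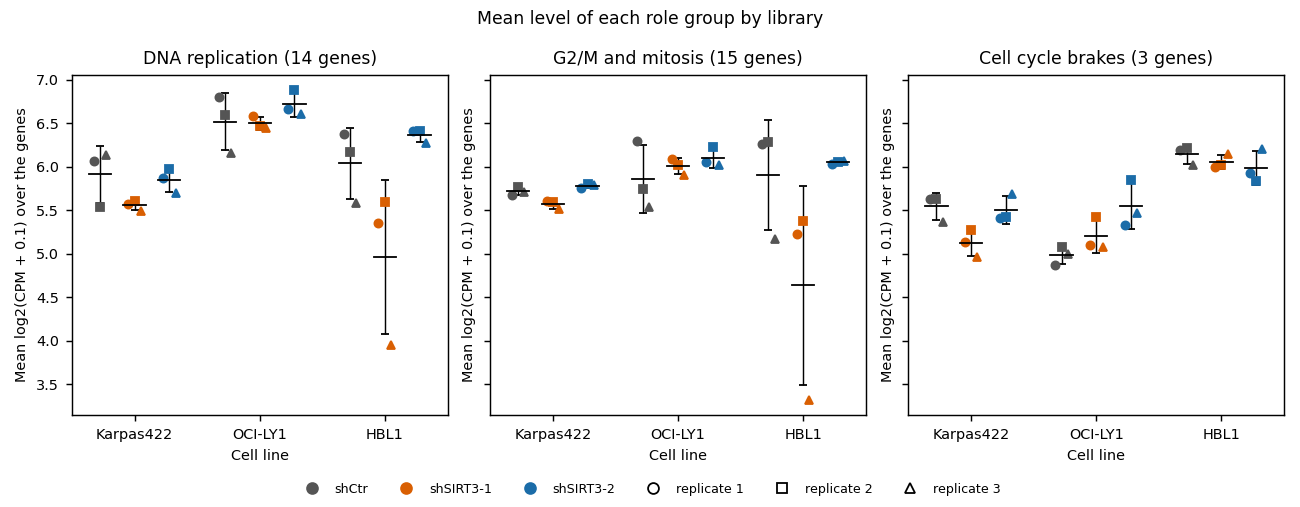
Mean log2(CPM + 0.1) of the replication, mitotic and brake members (vertical axis) in each of the 27 libraries by line and shRNA (horizontal axis), where the marker shape is the replicate number, the bar the group mean and the error bar the SD of 3 libraries. In HBL1 the replication and mitotic means of all 3 shSIRT3-1 libraries lie below the control library of the same number, and the brakes stay between 5.83 and 6.22.

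Genes were tested where CPM reached 1 in at least 3 of the libraries fitted, by limma on log2(CPM + 0.1) with Benjamini-Hochberg adjustment over all genes tested. A gene was called at a fold over 1.5 and an adjusted p under 0.05. Where a call is said to be kept in some of its alternatives, 1 of these only drops the fold limit. That alternative cannot lose a call. Member counts with a replicate, line or library left out are given without the share of all genes in the same fit. They therefore do not tell a change in the members from a change in the whole table. In every fit 42 of 43 members were tested, the missing one being CCND1, which encodes cyclin D1. CCND1 stood between 0.00981 and 1.12 CPM in all 27 libraries. Its highest values were in replicate 3 of HBL1, at 1.05 CPM in the control and 1.12 with shSIRT3-1.

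With the 3 lines fitted together, shSIRT3-1 lowered 8 of 42 members (19%), against 9.09% of all genes tested, and raised none. They were the helicase loader CDT1, the helicase subunits MCM6 and MCM3, the E2F factor E2F1 (-0.62 ± 0.24 SE, adjusted p = 0.047, a call kept in 2 of 14 alternatives), the cyclin CCNE1, the kinase CDK6, the phosphatase CDC25C and the mitotic kinase AURKB. With shSIRT3-2 only E2F2 was called lower (1 of 42, against 10.2% of all genes), while CCNE2, RRM2 and MCM4 were called higher (3 of 42, against 3.29%). No member was called with both hairpins. The median log2 fold change of the tested members was -0.39 with shSIRT3-1 and 0.20 with shSIRT3-2, beside -0.05 and -0.03 for all genes. All 14 replication genes and 14 of 15 mitotic genes had a value below 0 with shSIRT3-1, compared with 4 and 3 with shSIRT3-2. The shSIRT3-1 count was 3 without HBL1, 4 without replicate 3 of HBL1 shSIRT3-1 alone and 16 without OCI-LY1.

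**Figure D3:**
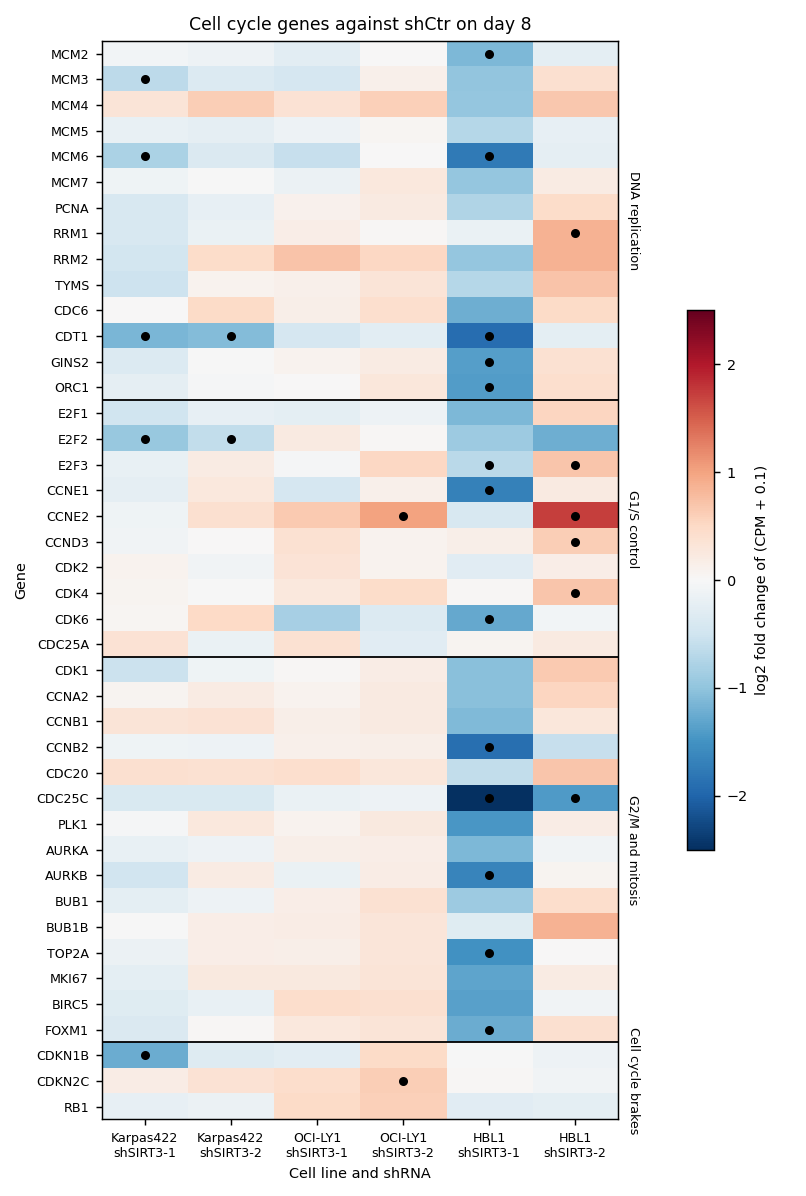
Log2 fold change against shCTRL (colour, from -2.5 to 2.5) of the 42 tested members (rows, by role) for each line and SIRT3 shRNA (columns), with a black dot where the gene was called. The HBL1 shSIRT3-1 column is the one with most negative values, 38 of 42, and holds 13 of the dots.

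Among the DNA replication genes, CDT1 (hg19 chr16:88870197-88875666, plus strand) had the largest fall over the 3 lines. In Karpas422 it stood at 43.5, 26.7 and 43.4 CPM in controls, 16.4, 18.7 and 14.98 with shSIRT3-1 and 17.8, 21.2 and 13.7 with shSIRT3-2. The OCI-LY1 libraries stood at 35.9, 65.0 and 33.3, at 34.3, 29.4 and 32.3, and at 35.5, 33.2 and 37.6. In HBL1 it stood at 30.0, 26.9 and 21.1, at 9.51, 12.9 and 2.49, and at 23.1, 21.4 and 21.1. Both hairpins lay wholly below the controls in Karpas422, only shSIRT3-1 did in HBL1, and groups overlapped in OCI-LY1, where 1 control library, at 65.0 CPM, stood above all others. Its log2 fold change was -1.16 ± 0.26 SE over the 3 lines with shSIRT3-1 (adjusted p = 0.00097) and -0.53 ± 0.26 with shSIRT3-2 (adjusted p = 0.10). In Karpas422 alone CDT1 fell with both, by 1.15 ± 0.21 (adjusted p = 0.0034) and 1.09 ± 0.21 (adjusted p = 0.0046) on the log2 scale. In HBL1 the fall with shSIRT3-1 was -1.91 ± 0.50 (adjusted p = 0.016).

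MCM6 (hg19 chr2:136597196-136634013, minus strand), a subunit of the replicative helicase, was singled out after its values were seen. Its control, shSIRT3-1 and shSIRT3-2 libraries stood at 124, 91.7 and 122 CPM, 75.1, 71.9 and 49.4, and 93.96, 100 and 71.3 in Karpas422. In OCI-LY1 they stood at 184, 196 and 131, at 123, 94.9 and 119.6, and at 167, 179 and 162. In HBL1 they stood at 120.4, 108 and 71.2, at 34.8, 44.4 and 14.98, and at 83.1, 88.5 and 77.5. The shSIRT3-1 libraries did not overlap the controls in any line. MCM6 fell with shSIRT3-1 over the 3 lines (-1.05 ± 0.19, adjusted p = 0.00011), in Karpas422 (-0.79 ± 0.19, adjusted p = 0.012) and in HBL1 (-1.77 ± 0.36, adjusted p = 0.0055). In OCI-LY1 the value was -0.59 ± 0.16 with adjusted p = 0.055, and 0.045 with the block. With shSIRT3-2 it was -0.19 ± 0.19 over the 3 lines (adjusted p = 0.45).

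Other replication genes did not follow CDT1 and MCM6 in every line. RRM1, the large subunit of ribonucleotide reductase, stood in HBL1 at 64.8, 60.3 and 40.0 CPM in controls, 54.9, 60.9 and 32.5 with shSIRT3-1 and 96.3, 98.4 and 99.7 with shSIRT3-2. All shSIRT3-2 libraries were above all others, and the change was 0.86 ± 0.25 (adjusted p = 0.026). In Karpas422 the RRM1 libraries stood at 105, 82.2 and 115, at 75.8, 76.3 and 75.1, and at 88.8, 92.6 and 84.4, and in OCI-LY1 at 156, 123 and 100.5, at 147, 128 and 142, and at 124, 138 and 118. RRM1 was called in neither of these lines. RRM2, the small subunit of the same enzyme, was higher with shSIRT3-2 over the 3 lines (0.62 ± 0.25, adjusted p = 0.049), as was the helicase subunit MCM4 (0.63 ± 0.22, adjusted p = 0.029). The RRM2 call was kept in 7 of 14 alternatives and the MCM4 call in 10 of 14. RRM2 and MCM4 were named after their calls were seen.

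PCNA, the sliding clamp of the replication fork, was not called in any line against controls in the fit without the block. Its HBL1 libraries stood at 115.6, 101 and 66.6 CPM in controls, 72.5, 76.3 and 29.4 with shSIRT3-1 and 138, 135 and 107.5 with shSIRT3-2. In Karpas422 they stood at 119, 83.7 and 121, at 82.7, 79.5 and 80.1, and at 87.8, 100.4 and 88.4. In OCI-LY1 they stood at 160.5, 156 and 91.6, at 144, 146 and 134, and at 141, 195 and 136. In each replicate number of HBL1, PCNA was lower with shSIRT3-1 and higher with shSIRT3-2 than in the control. The shSIRT3-1 change in HBL1 was -0.75 ± 0.36 (adjusted p = 0.12, and 0.016 with the block). MCM3, MCM4, MCM5, MCM7, CDC6 and RRM2 also gained a call in HBL1 with the block, beside MCM2, GINS2, ORC1, CDT1 and MCM6, which had one without it. RRM1 and TYMS, which makes thymidylate, had no call with shSIRT3-1 in HBL1 in either fit.

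**Figure D4:**
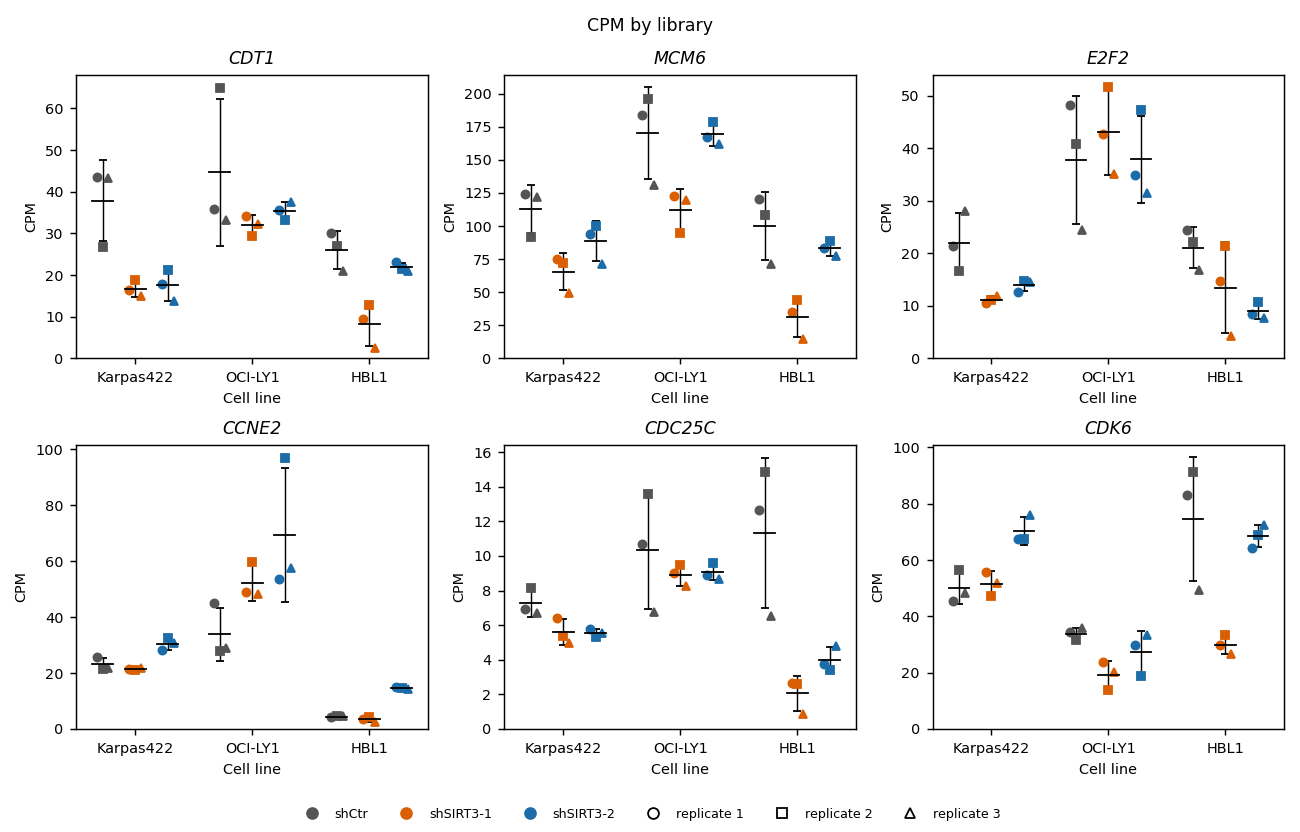
CPM (vertical axis, 1 panel per gene, each with its own scale) of CDT1, MCM6, E2F2, CCNE2, CDC25C and CDK6 in the 27 libraries by line and shRNA (horizontal axis), where each marker is a library, its shape the replicate number and the bar the group mean. MCM6 in shSIRT3-1 libraries lies below all controls of its line, and CCNE2 in HBL1 rises to 14.4 to 15.1 CPM with shSIRT3-2 from 4.22 to 4.51 in controls.

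In G1/S control the 2 E cyclins differed. CCNE2, cyclin E2, stood in HBL1 at 4.22, 4.51 and 4.48 CPM in controls, 3.73, 4.19 and 2.32 with shSIRT3-1 and 15.1, 14.8 and 14.4 with shSIRT3-2. In OCI-LY1 it stood at 44.9, 27.8 and 29.1, at 48.9, 59.7 and 48.4, and at 53.7, 96.9 and 57.7. In Karpas422 it stood at 25.9, 21.6 and 21.8, at 21.3, 21.2 and 21.7, and at 28.4, 32.6 and 30.6. The shSIRT3-2 libraries exceeded every control library in each of the 3 lines. CCNE2 rose with shSIRT3-2 over the 3 lines (1.05 ± 0.20, adjusted p = 0.00026), in HBL1 (1.72 ± 0.20, adjusted p = 0.00048) and in OCI-LY1 (1.01 ± 0.24, adjusted p = 0.033). In Karpas422 its value of 0.40 ± 0.10 (adjusted p = 0.011) was under the fold limit. With shSIRT3-1 the value over the 3 lines was 0.05 ± 0.20 (adjusted p = 0.87).

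CCNE1, cyclin E1, fell with shSIRT3-1 instead. In HBL1 it stood at 15.2, 15.3 and 8.52 CPM in controls, 4.57, 6.08 and 2.03 with shSIRT3-1 and 16.9, 15.7 and 12.1 with shSIRT3-2. In Karpas422 it stood at 11.2, 9.13 and 9.94, at 9.89, 9.62 and 6.67, and at 12.6, 12.8 and 11.1, and in OCI-LY1 at 24.0, 21.5 and 20.8, at 18.4, 12.7 and 18.9, and at 23.6, 26.7 and 22.0. Controls and shSIRT3-1 overlapped in Karpas422 and were apart in HBL1 and OCI-LY1. The fall was -0.78 ± 0.21 over the 3 lines (adjusted p = 0.0049) and -1.68 ± 0.39 in HBL1 (adjusted p = 0.0091). With shSIRT3-2 the value over the 3 lines was 0.21 ± 0.21 (adjusted p = 0.46).

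E2F2 (hg19 chr1:23832930-23857725, minus strand), an activating E2F, was called lower with both hairpins in Karpas422. There it stood at 21.4, 16.8 and 28.1 CPM in controls, 10.6, 11.2 and 11.9 with shSIRT3-1 and 12.7, 14.7 and 14.7 with shSIRT3-2. In HBL1 it stood at 24.4, 22.1 and 16.8, at 14.8, 21.4 and 4.32, and at 8.53, 10.8 and 7.73. In OCI-LY1 it stood at 48.2, 40.8 and 24.5, at 42.8, 51.7 and 35.2, and at 35.0, 47.3 and 31.5. Groups were apart in Karpas422 and overlapped in OCI-LY1, and in HBL1 only shSIRT3-2 was apart from controls. The falls in Karpas422 were -0.94 ± 0.16 (adjusted p = 0.0028) and -0.62 ± 0.16 (adjusted p = 0.019). With shSIRT3-2 E2F2 fell over the 3 lines (-0.60 ± 0.23, adjusted p = 0.044), a call kept in 7 of 14 alternatives. In HBL1 its value with shSIRT3-2 was -1.21 ± 0.49 (adjusted p = 0.087, and 0.029 with the block). E2F3, another activating E2F, was called in HBL1 with both hairpins in opposite directions. It stood at 14.5, 15.1 and 13.5 CPM in controls. With shSIRT3-1 it fell to 9.76, 10.8 and 6.97 (-0.67 ± 0.16, adjusted p = 0.010), a call kept in 4 of 11 alternatives. With shSIRT3-2 it rose to 23.3, 24.7 and 21.9 (0.69 ± 0.16, adjusted p = 0.010), a call kept in 9 of 11.

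Of the partners of cyclin D, CDK6 fell with shSIRT3-1 and CDK4 and the cyclin CCND3 rose with shSIRT3-2, in HBL1. CDK6 stood in HBL1 at 83.1, 91.3 and 49.5 CPM in controls, 29.9, 33.4 and 26.7 with shSIRT3-1 and 64.4, 68.7 and 72.4 with shSIRT3-2. In OCI-LY1 it stood at 34.3, 31.5 and 35.8, at 23.8, 13.9 and 20.2, and at 29.8, 19.0 and 33.4, and in Karpas422 at 45.4, 56.3 and 48.3, at 55.9, 47.2 and 51.7, and at 67.7, 67.5 and 76.0. The shSIRT3-1 libraries lay below every control in HBL1 and OCI-LY1 and among them in Karpas422. The change was -1.27 ± 0.21 in HBL1 (adjusted p = 0.0021) and -0.69 ± 0.16 over the 3 lines (adjusted p = 0.0016). In OCI-LY1 it was -0.84 ± 0.23 (adjusted p = 0.055, and 0.013 with the block).

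CDK4 stood in HBL1 at 110.0, 98.3 and 75.0 CPM in controls, 116, 104 and 71.6 with shSIRT3-1 and 160.4, 148 and 147 with shSIRT3-2. CCND3 stood there at 65.7, 55.2 and 37.7, at 62.3, 55.4 and 52.8, and at 88.8, 78.9 and 71.5. For both genes the shSIRT3-2 libraries were above all others, and CDK4 rose by 0.70 ± 0.19 (adjusted p = 0.023) and CCND3 by 0.62 ± 0.19 (adjusted p = 0.033) on the log2 scale. In Karpas422 CDK4 ranged from 60.0 to 78.7 CPM and CCND3 from 29.5 to 45.8 over the 9 libraries, and in OCI-LY1 CDK4 ranged from 82.3 to 158 and CCND3 from 25.5 to 38.9. Neither gene was called in these lines. CDK2, the partner of cyclin E, and CDC25A, the phosphatase that activates it, were called in no line against controls.

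Among mitotic genes, CDC25C (hg19 chr5:137620958-137674044, minus strand), which activates CDK1 at the entry into mitosis, was called with both hairpins in HBL1. It stood there at 12.7, 14.9 and 6.50 CPM in controls, 2.68, 2.62 and 0.856 with shSIRT3-1 and 3.74, 3.43 and 4.82 with shSIRT3-2. In Karpas422 it stood at 6.94, 8.13 and 6.71, at 6.43, 5.36 and 4.996, and at 5.78, 5.34 and 5.57. OCI-LY1 gave 10.7, 13.6 and 6.78, then 9.004, 9.50 and 8.25, then 8.92, 9.57 and 8.69. Both hairpins lay below all controls in HBL1 and, by a smaller margin, in Karpas422, and within them in OCI-LY1. The fall in HBL1 was -2.48 ± 0.44 with shSIRT3-1 (adjusted p = 0.0030) and -1.42 ± 0.44 with shSIRT3-2 (adjusted p = 0.037). Over the 3 lines it was -1.004 ± 0.27 (adjusted p = 0.0045) with shSIRT3-1 and -0.64 ± 0.27 (adjusted p = 0.060) with shSIRT3-2.

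MKI67, the proliferation marker Ki-67, stood in HBL1 at 384, 375 and 205 CPM in controls, 186, 214 and 47.3 with shSIRT3-1 and 337, 372 and 364 with shSIRT3-2. In Karpas422 it stood at 192, 216 and 227, at 182, 175 and 177, and at 233, 247 and 272. OCI-LY1 gave 395, 254 and 235, then 359, 375 and 291, then 335, 437 and 317. The shSIRT3-1 value of replicate 2 in HBL1 exceeded control replicate 3, so the groups overlapped, although each was below the control of its own number. The change there was -1.32 ± 0.51 (adjusted p = 0.069, and 0.025 with the block). CCNB2, a cyclin B, AURKB, the topoisomerase TOP2A and FOXM1, a factor that activates mitotic genes, were called lower in HBL1 with shSIRT3-1 beside CDC25C, and the block added CDK1, CCNB1, PLK1, AURKA, MKI67 and BIRC5. In Karpas422 and OCI-LY1 no mitotic member was called against controls, with either hairpin.

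No brake was called against controls in more than 1 line. In OCI-LY1 with shSIRT3-2 the 3 brakes had log2 fold changes from 0.47 to 0.62 (median 0.60, beside 0.0051 for all genes), with 1 called higher, and 2 with the block. CDKN1B (hg19 chr12:12838432-12875303, plus strand) stood in Karpas422 at 46.3, 49.7 and 28.7 CPM in controls, 19.9, 23.7 and 10.5 with shSIRT3-1 and 33.7, 31.0 and 32.6 with shSIRT3-2. In OCI-LY1 it stood at 40.6, 68.8 and 64.2, at 39.2, 55.5 and 47.8, and at 62.8, 97.2 and 78.3, and in HBL1 at 39.3, 41.9 and 34.7, at 35.6, 37.1 and 43.2, and at 33.6, 29.8 and 43.4. The shSIRT3-1 libraries of Karpas422 were below all controls, and the groups overlapped elsewhere. CDKN1B fell in Karpas422 with shSIRT3-1 (-1.24 ± 0.28, adjusted p = 0.0093). In HBL1 its value was -0.0023 ± 0.15 (adjusted p = 0.99).

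CDKN2C was called higher in OCI-LY1 with shSIRT3-2. It stood there at 92.7, 75.3 and 84.0 CPM in controls, 107.5, 120.3 and 114 with shSIRT3-1 and 112, 158.5 and 121 with shSIRT3-2. In Karpas422 it stood at 24.0, 19.3 and 23.3, at 24.3, 25.3 and 25.7, and at 27.2, 25.4 and 32.9, and in HBL1 at 35.2, 33.5 and 33.8, at 30.6, 31.8 and 43.6, and at 30.4, 28.2 and 39.1. In OCI-LY1 and Karpas422 both hairpins lay above every control, and in HBL1 groups overlapped. The rise was 0.62 ± 0.14 in OCI-LY1 with shSIRT3-2 (adjusted p = 0.027), beside 0.44 ± 0.14 with shSIRT3-1 (adjusted p = 0.078).

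RB1 (hg19 chr13:48877880-49173572, plus strand) was set apart by its control levels more than by the knockdown. Its control libraries stood at 109, 126 and 104 CPM for Karpas422, at 6.59, 7.21 and 5.93 for OCI-LY1, and at 280.1, 290.4 and 232 for HBL1. With shSIRT3-1 it stood at 89.2, 94.2 and 112, at 9.46, 11.8 and 6.95, and at 237, 233 and 189, and with shSIRT3-2 at 82.8, 99.1 and 127, at 9.16, 12.3 and 8.95, and at 219, 219 and 235, in the same order of lines. The lines did not overlap in any condition. RB1 in OCI-LY1 had a value of 0.60 ± 0.20 with shSIRT3-2 (adjusted p = 0.082, and 0.019 with the block).

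**Figure D5:**
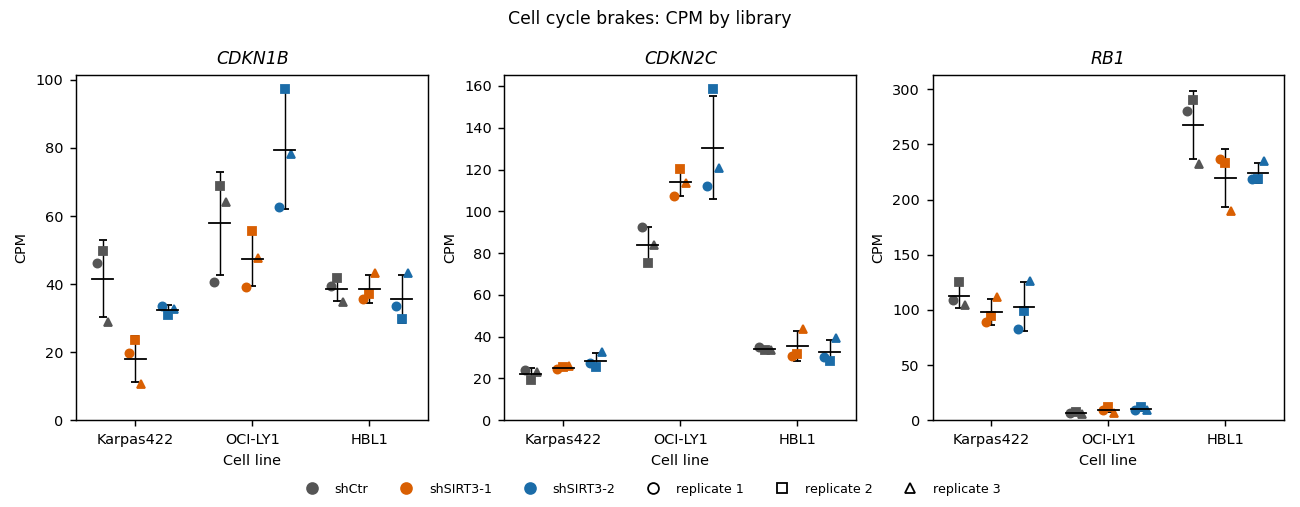
CPM (vertical axis, 1 panel per gene, each with its own scale) of the brakes CDKN1B, CDKN2C and RB1 in the 27 libraries by line and shRNA (horizontal axis), where each marker is a library, its shape the replicate number and the bar the group mean. CDKN1B is lowest in Karpas422 with shSIRT3-1, at 10.5 to 23.7 CPM, and RB1 separates the 3 lines.

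Counted by line, HBL1 with shSIRT3-1 held most calls. There 13 of 42 members (31%) were called lower and 0 higher, against 18.8% of all genes called lower, and with the block 27 were, against 21.3%. By role these were 5 of 14 replication genes, 3 of 10 G1/S genes, 5 of 15 mitotic genes and 0 of 3 brakes, and with the block 12, 4, 11 and 0. The median log2 fold change was -0.98 for replication, -0.53 for G1/S, -1.23 for mitosis and -0.0023 for brakes, beside -0.11 for all genes. In the 3 same-numbered pairs, 35 of 42 members (83.3%) were lower each time, against 41.4% of all genes. The count without the block was 0 without replicate 1, 3 without replicate 2 and 26 without replicate 3. It was 13 (12 lower, 1 higher) without the shSIRT3-1 library of replicate 3 alone. The shares of all genes in these left-out fits are not given here. edgeR on recovered reads called 7.

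HBL1 with shSIRT3-2 gave a different set of calls. Of 42 members, 1 was called lower (CDC25C), against 16% of all genes, and 5 were called higher (CCNE2, RRM1, CDK4, E2F3 and CCND3), against 7.51%. In all 3 same-numbered pairs 22 of 42 members (52.4%) were higher, against 34.2% of all genes, and 3 (7.14%) were lower, against 42.5%. With the block RRM2 (adjusted p = 0.046) and the checkpoint kinase BUB1B (adjusted p = 0.032) were added as higher and E2F2 as lower. The median log2 fold change of the tested members was 0.26, beside -0.06 for all genes. The count was 0 without replicate 1, 1 without replicate 2, 7 without replicate 3 and 12 without the shSIRT3-1 library of replicate 3, which bears on this contrast through the shared estimate of spread.

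In Karpas422, shSIRT3-1 lowered 5 of 42 members (11.9%, against 11.5% of all genes), which were CDKN1B, CDT1, E2F2, MCM6 and MCM3. With shSIRT3-2, CDT1 and E2F2 were called lower (2 of 42, against 9.44%). These shares were near or under those of all genes. The median log2 fold change of replication genes was -0.37 with shSIRT3-1 and -0.08 with shSIRT3-2, and that of mitotic genes -0.18 and 0.16. Neither hairpin gave a member call without replicate 1.

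In OCI-LY1, limma called 0 of 42 members with shSIRT3-1, against 4.5% of all genes. At an unadjusted p under 0.05 there were 12, of which 5 were lower and 7 higher, a count without a share of all genes beside it. edgeR called 2 (MCM6 and CDK6), beside 338 lower and 210 higher among all genes. With the block 3 were called, against 6.58% of all genes, MCM6 and CDK6 lower and RRM2 higher (0.72, adjusted p = 0.043). With shSIRT3-2, CCNE2 and CDKN2C were called higher (2 of 42, against 2.15% of all genes called higher), and the block added MCM4 (0.60, adjusted p = 0.047) and RB1, 4 in all, against 3.22%. The call count with shSIRT3-2 was 0 when any replicate was left out.

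Replication and mitotic members were close to each other in their median shift over the 3 lines, although the difference had opposite signs between lines. The median log2 fold change of the mitotic genes minus that of the replication genes was -0.05 with shSIRT3-1 and 0.06 with shSIRT3-2 over the 3 lines. For Karpas422 it was 0.19 and 0.24, for OCI-LY1 0.10 and 0.03, and for HBL1 -0.26 and -0.20. These differences of medians have no test here. Within a library, the mitotic minus replication mean in HBL1 was -0.13 ± 0.26 (SD, n = 3) in controls, -0.33 ± 0.27 with shSIRT3-1 and -0.31 ± 0.10 with shSIRT3-2. For Karpas422 the same means were -0.20 ± 0.37, 0.01 ± 0.03 and -0.07 ± 0.13, and for OCI-LY1 -0.66 ± 0.17, -0.49 ± 0.04 and -0.62 ± 0.04. Within each line the range of either knockdown group overlapped that of the controls. Within same-numbered pairs the shSIRT3-1 value minus the control was -0.015, -0.34 and -0.23 in HBL1 and 0.013, 0.40 and 0.086 in OCI-LY1, and with shSIRT3-2 it was -0.26, -0.48 and 0.20 in HBL1 and -0.12, 0.19 and 0.039 in OCI-LY1. The pairs thus shared a sign with shSIRT3-1, opposite in these lines, and were of mixed sign with shSIRT3-2. The values of -0.015 and 0.013 were small beside the SD of 0.19 between replicates, so the shared sign says little. In Karpas422 the pairs were of mixed sign, at 0.43, -0.25 and 0.44 with shSIRT3-1 and 0.28, -0.40 and 0.51 with shSIRT3-2.

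The hairpins differed from each other. With the 3 lines together, 19 of 42 members (45.2%) were called higher with shSIRT3-2 than with shSIRT3-1 and 0 lower, against 5.27% of all genes called higher. They were 8 of 14 replication genes, 5 of 10 G1/S genes and 6 of 15 mitotic genes, and the median difference was 0.59, beside 0.00047 for all genes. In HBL1 alone 24 (57.1%) were called higher and 0 lower, against 14.9% of all genes, with a median difference of 1.35 beside 0.04, and the block gave 34, against 17.2% of all genes, which took in 15 of 15 mitotic genes. The largest difference there was that of CCNE2 (2.12 ± 0.20, adjusted p = 0.00038), followed by CCNE1 (1.92 ± 0.39, adjusted p = 0.0065) and RRM2 (1.84 ± 0.37, adjusted p = 0.0065). SIRT3 itself differed in HBL1 by 0.56 ± 0.15 between hairpins (adjusted p = 0.021). Mean SIRT3 with shSIRT3-1 and shSIRT3-2 was 2.17 and 3.26 CPM in HBL1, 2.60 and 5.32 in Karpas422 and 1.64 and 5.42 in OCI-LY1. The gap in SIRT3 was thus smallest in HBL1, where most members differed between hairpins. The part of the SIRT3 level in the member differences was not tested.

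Outside HBL1 this difference was small. In Karpas422, 4 of 42 members (9.52%) were called higher with shSIRT3-2, against 6.87% of all genes, namely RRM2, TYMS, AURKB and CDKN1B. In OCI-LY1 limma called 0, against 4.68% of all genes. At an unadjusted p under 0.05 there were 9 in OCI-LY1 (2 lower and 7 higher with shSIRT3-2), again without a share of all genes. edgeR called 1 (MCM6), beside 271 lower and 260 higher among all genes. The block called 3, against 6.56%, with MCM6 (0.60, adjusted p = 0.044) and CDKN1B (0.73, adjusted p = 0.0040) higher and CDC25A (-0.67, adjusted p = 0.022) lower. Without HBL1 the 3-line count dropped from 19 to 2 (1 lower, 1 higher), and without the shSIRT3-1 library of HBL1 replicate 3 it was 7. In HBL1 the count was 24 (23 higher, 1 lower) without that library, 0 without replicate 1, 5 without replicate 2 and 29 without replicate 3.

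A test of whether the response differed between lines called 18 of 42 members (42.9%), against 41.8% of all genes, so the members' share was near that of the whole table. With the block 38 of 42 were called, against 58.8% of all genes, in a fit that takes in Karpas422, where 1 of 9 same-numbered pairs fell under the limit set for pairing. CCNE2 (adjusted p = 0.00027), E2F3 (adjusted p = 0.0025), CDC25C (adjusted p = 0.0029) and RRM1 (adjusted p = 0.0068) had the lowest values. They were 6 of 14 replication genes, 5 of 10 G1/S genes, 5 of 15 mitotic genes and 2 of 3 brakes. The number was 1 without replicate 1, 8 without replicate 2 and 28 without replicate 3.

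Control cells of the lines differed in 20 of 42 members (47.6%), against 88% of all genes. These were 8 of 14 replication genes, 8 of 10 G1/S genes, 2 of 15 mitotic genes (PLK1 and BUB1B) and 2 of 3 brakes. The lowest p-values were those of RB1 (adjusted p = 7.2e-18), CCNE2 (adjusted p = 1.0e-11), E2F3 (adjusted p = 9.8e-11) and CDKN2C (adjusted p = 1.1e-10). CCNE2 was 4.22 to 4.51 CPM in HBL1 controls and 27.8 to 44.9 in OCI-LY1 controls, whereas E2F3 was highest in Karpas422 controls, at 45.5 to 47.9 CPM. The count was 31 without HBL1 replicate 3 and 13, 14 and 34 without replicates 1, 2 and 3.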

How the data were processed

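Total RNA from 3 DLBCL lines at day 8 after infection was sequenced in 27 libraries (9 groups of 3) from TruSeq libraries as paired ends, and per the paper's methods reads were aligned with STAR to hg19 and counted on RefSeq genes with Rsubread. Whether counting used strand is not given in the sources used here. The deposited values are named FPKM in their file names but are CPM of a library total set by the authors, since within each library they are whole multiples of 1 value for 100% of genes (tolerance 0.01 reads). In OCI-LY1 shCTRL replicate 3 and shSIRT3-2 replicate 1 that step is near the last decimal written. The test was run on these CPM, as the unit differs from the name. Genes held 40.3% to 45.6% of the authors' totals.

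Members and lists were chosen with earlier results of these data known. Scripts in Python 3.11.15 and R 4.3.3 fitted limma 3.58.1 (trend) on log2(CPM + 0.1) to genes with CPM of at least 1 in 3 fitted libraries, with shRNA and line over all 27 libraries, with shRNA in each line alone, and with 9 groups for F tests of the interaction and of controls. Fold changes are on that log2 scale and understate low genes. A call was a fold over 1.5 with an adjusted p under 0.05. Per-library values were given for members called with both hairpins, the member with the largest change per role group, brakes, D cyclins and their kinases, PCNA and MKI67, and other members were named after their values were seen. From each other list up to 3 genes called alike with both hairpins were named.

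Same-numbered libraries of a line deviated together, with a correlation of deviations over 0.1 in 26 of 27 pairs (mean 0.32, against -0.14 in the other 54). Of those 54 differently numbered pairs, 12 were also over 0.1. In HBL1 they reached 0.35, above the lowest same-numbered pair there, at 0.22. All 9 same-numbered pairs passed in HBL1 and in OCI-LY1, whereas in Karpas422 the lowest was 0.014 and the mean 0.29. Karpas422 thus did not meet the limit set for every pair, and the block is used for HBL1 and OCI-LY1. Where it comes from is not given in the labels.

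Alternatives were edgeR 4.0.16 on the recovered reads, other scalings, pseudocount and filter, the block, and left-out replicates, lines and libraries. The adjusted p without the fold limit was also counted among them, although it cannot lose a call. The fits were tested on simulated data. Gene positions are from GENCODE v44 lifted to GRCh37 and promoters from RefSeq GRCh38.p14.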

Additional observations from a re-analysis of the deposited data

Results flagged for a closer look

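The interaction F test of limma called 41.8% of all genes as differing between the 3 lines in their response to the SIRT3 shRNAs. The members' share was near that, with 18 of 42 tested members called (42.9%). Ordered by adjusted p these were CCNE2 (0.00027), E2F3 (0.0025), CDC25C (0.0029), RRM1 (0.0068), CDK6 (0.0080), RRM2 (0.010), CCNE1 (0.013), FOXM1 (0.020), CCNB2 (0.020), CDKN1B (0.022), RB1 (0.025), GINS2 (0.027), ORC1 (0.032), CDT1 (0.037), MCM4 (0.040), CDK1 (0.042), CCND3 (0.044) and TOP2A (0.049). CCNE2 had log2 fold changes of 1.72, 1.01 and 0.40 with shSIRT3-2 and of -0.40, 0.65 and -0.11 with shSIRT3-1 in HBL1, OCI-LY1 and Karpas422. CDKN1B fell in Karpas422 with shSIRT3-1 (-1.24) and stood at -0.26 in OCI-LY1 and -0.0023 in HBL1. RB1 was at -0.15, 0.60 and -0.25 with shSIRT3-2 in Karpas422, OCI-LY1 and HBL1. RRM2 with shSIRT3-1 was at -0.45, 0.72 and -0.97 in the same order.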

How the results depend on the processing

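Of the 87 calls of single members, 87 remained with the replicate block, 84 with a pseudocount of 1 and 80 with an equal total over genes. There remained 68 with quantile normalization, 68 with edgeR and 66 with no filter on low values. All 87 remained with the adjusted p alone, which was fixed in advance, since dropping the fold limit cannot lose a call. Without replicate 1, 2 or 3 there remained 15, 29 and 66. Of the 31 calls in the 3-line fits, 4 remained without HBL1, 13 without HBL1 replicate 3 and 29 without OCI-LY1, and of 74 calls 56 remained without the shSIRT3-1 library of HBL1 replicate 3. No call turned direction. Leaving out HBL1, HBL1 replicate 3 or that library was chosen after seeing the data.

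Counts over the 3 lines with shSIRT3-1 (8) were 16 without OCI-LY1 and 3 without HBL1. With shSIRT3-2 (4) they were 2 with quantile normalization and 7 by adjusted p alone, the latter against 38.1% of all genes. Between hairpins (19) the count was 2 without HBL1. By adjusted p alone Karpas422 gave 15, 7 and 12 for shSIRT3-1, shSIRT3-2 and their difference, against 33.7%, 31.1% and 22.7% of all genes. With the fold limit these were 5, 2 and 4, against 16%, 15% and 11.5% of all genes. OCI-LY1 with shSIRT3-1 (0) gave 1 with quantile normalization, 1 with an equal total, 3 with the replicate block and 2 with edgeR. OCI-LY1 with shSIRT3-2 (2) gave 1 with no filter, 1 with quantile normalization and 4 with the block. Between hairpins OCI-LY1 (0) gave 1 with an equal total, 1 with edgeR, 1 by adjusted p alone (against 7.1% of all genes) and 3 with the block. HBL1 with shSIRT3-1 (13) gave 8 with no filter, 7 with edgeR and 27 with the block. The response count (18, against 41.8% of all genes) was 38 with the block (against 58.8%) and 11 with edgeR. The mitotic minus replication median with shSIRT3-1 was 0.14 without HBL1. The cause of these shifts was not tested. The block moved no other count by over 1.5 times, and over the 3 lines it gave 8, 4 and 20 calls, although 1 of the 9 same-numbered Karpas422 pairs was under the limit set for pairing.

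With a replicate, HBL1 replicate 3 or its shSIRT3-1 library left out, counts ranged over the 3 lines from 4 to 7 (shSIRT3-1), 1 to 5 (shSIRT3-2) and 6 to 11 (difference), in Karpas422 from 0 to 7, 0 to 4 and 0 to 2, in OCI-LY1 at 0 throughout, and in HBL1 from 0 to 26, 0 to 12 and 0 to 29. The response count ranged from 1 to 30 and that of controls from 13 to 34. All these counts stand without the share of all genes in the same fit. The mitotic minus replication median ranged from -0.11 to 0.06 with shSIRT3-1 and from -0.06 to 0.13 with shSIRT3-2.

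Quantile normalization moved the median of all genes in HBL1 with shSIRT3-1 from -0.11 to 0.04 and that of members from -1.01 to -0.92, and the share of calls that were lower from 68% to 49.7% (edgeR 53.4%). The same share moved over the 3 lines from 69.9% to 54.7% with shSIRT3-1 and 75.6% to 59.6% with shSIRT3-2, in Karpas422 with shSIRT3-1 from 72.1% to 53.6% and in HBL1 with shSIRT3-2 from 68% to 50.8%. CCND1 was too low to test in any fit with the filter.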

Other observations

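Further replication and mitotic genes, from lists outside the members, were counted in the same way. In HBL1 with shSIRT3-1, 20 of 45 other mitotic genes (44.4%) and 11 of 44 other replication genes (25%) were called lower and 0 higher, against 18.8% of all genes called lower, and with the block 33 and 21, against 21.3%. With shSIRT3-2 the same lists gave 0 calls among the mitotic genes and 3 higher among the replication genes (6.82%, against 7.51% of all genes). Between hairpins in HBL1, 32 of 44 other replication genes (72.7%) and 20 of 45 other mitotic genes were higher with shSIRT3-2, against 14.9% of all genes. Over the 3 lines shSIRT3-1 lowered 10 of 45 other mitotic genes (22.2%) and 5 of 44 other replication genes (11.4%), against 9.09% of all genes. The median log2 fold change of these mitotic and replication lists with shSIRT3-1 was -0.42 and -0.24 over the 3 lines. By line it was -1.30 and -0.65 in HBL1, -0.19 and -0.21 in Karpas422 and 0.08 and -0.04 in OCI-LY1. With shSIRT3-2 it was 0.07 and 0.16 over the 3 lines. In the promoters, CHR letters were found in 26 of 37 other mitotic genes (70.3%) and 1 of 39 other replication genes (2.56%), and E2F letters in 3 (8.11%) and 8 (20.5%).

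Of 24 other cell cycle control genes, 6 of the 23 tested were called lower over the 3 lines with shSIRT3-1, and with shSIRT3-2 3 were lower and 2 higher. Of all genes, 9.09% were lower and 3.92% higher with shSIRT3-1, and 10.2% lower and 3.29% higher with shSIRT3-2. Of 18 genes known as p53 targets, 17 were tested, of which 6 were lower and 1 higher with shSIRT3-1 and 2 lower (11.8%) with shSIRT3-2, the latter near the share of all genes. CDKN1A (p21), an inhibitor of cyclin-dependent kinases that is in both lists, was called lower with both hairpins. It stood in Karpas422 at 4.44, 6.196 and 4.78 CPM in controls, 0.707, 1.19 and 1.496 with shSIRT3-1 and 0.226, 0.362 and 0.356 with shSIRT3-2. In HBL1 it stood at 252, 266 and 305, at 228, 181 and 47.6, and at 139.9, 133 and 82.1, and in OCI-LY1 at 29.8, 47.5 and 17.7, at 24.0, 13.3 and 25.0, and at 24.7, 25.5 and 35.1. Controls were apart from both hairpins in Karpas422 and HBL1, the hairpin groups overlapped each other in HBL1, and all groups overlapped in OCI-LY1. Over the 3 lines its change was -1.27 ± 0.37 SE with shSIRT3-1 (limma adjusted p = 0.0089) and -1.66 ± 0.37 with shSIRT3-2 (adjusted p = 0.0011). BBC3, which encodes the cell death protein PUMA, also fell with both, by 0.94 ± 0.24 (adjusted p = 0.0031) and 1.12 ± 0.24 (adjusted p = 0.00072) on the log2 scale. In HBL1 its controls stood at 10.3, 12.1 and 8.53 CPM, shSIRT3-1 at 4.96, 6.75 and 11.3 and shSIRT3-2 at 3.33, 2.74 and 6.06, so that only shSIRT3-2 was apart there.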
